A study of Mus musculus with 6 samples.

Results

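The heavy chain of every antibody begins with a variable (V) segment, and the mouse immunoglobulin heavy chain locus holds a long array of them. Described here are the V segments outside the largest family, Ighv1: all rows of the deposited expression table whose symbol starts with Ighv, without those of family Ighv1 and without Ighv11-2 and Ighv12-3. The rule uses names and no measured values, and finds 89 segments in 15 families, out of 183 heavy chain V segments and 53677 genes in the table. The RNA came from ST-HSC, short-term hematopoietic stem cells, which are multipotent progenitors and were sorted from mouse bone marrow as Lin- ckit+ CD48+ CD150- cells. The dnTCF4 group holds 3 libraries from C57BL/6J mice labelled dnTCF4+/+, which express a dominant-negative form of the transcription factor TCF4. The WT group holds 3 libraries from C57BL/6J mice labelled dnTCF4-/-. The labels do not name the promoter or cell type that drives dnTCF4, nor the age or sex of the mice, and the series text speaks of 3 mice of each genotype.

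A V segment is joined to a D and a J segment by the RAG recombinase in developing B cells, and the joined segment is then transcribed together with a constant region, mu first. Mature B cells keep 1 productive joined V segment each, and plasma cells, the antibody-secreting end of the lineage, transcribe theirs at very high levels. Unjoined segments can give low levels of germline transcripts. Families are groups of segments of similar sequence, and those closest to the D and J segments in the mouse are mostly of families Ighv2 and Ighv5, while family Ighv8 lies interspersed with Ighv1 at the far end. Multipotent progenitors are not known for antibody transcripts. In bulk RNA, fewer cells of a type and less RNA per cell cannot be told apart.

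All 89 segments lie on the minus strand of chromosome 12 in GRCm38, the build named in the submitters' processing notes, and were matched to GENCODE M21, which annotates 58 as V genes and 31 as pseudogenes. Intact V genes typically end with the codons of the conserved tyrosine and cysteine at the edge of the third antigen-binding loop, the point where the segment is joined. To show how alike these segments are where they are joined, the last 36 bases of the GENCODE M21 transcript are given, 5′ to 3′. They are shown for the segment with the highest mean level in each family that was read. The 3 segments that passed the test between the genotypes, described below, are included as well. The capitals mark the motif TANTNNTG, where N is any base.
Ighv2-3: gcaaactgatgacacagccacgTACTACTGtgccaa
Ighv3-6: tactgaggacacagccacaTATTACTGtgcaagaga
Ighv4-1: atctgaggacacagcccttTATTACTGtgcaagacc
Ighv5-16: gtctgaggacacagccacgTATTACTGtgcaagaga
Ighv5-6: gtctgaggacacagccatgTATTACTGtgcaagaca
Ighv6-3: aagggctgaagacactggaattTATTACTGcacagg
Ighv7-1: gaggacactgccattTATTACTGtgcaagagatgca
Ighv7-4: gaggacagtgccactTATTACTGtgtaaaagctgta
Ighv8-12: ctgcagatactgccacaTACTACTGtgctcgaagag
Ighv9-3: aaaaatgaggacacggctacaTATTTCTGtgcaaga
Ighv10-3: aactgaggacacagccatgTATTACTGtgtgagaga
Ighv11-1: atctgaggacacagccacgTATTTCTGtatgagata
Ighv13-2: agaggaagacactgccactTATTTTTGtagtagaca
Ighv14-1: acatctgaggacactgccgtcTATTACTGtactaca
Ighv14-4: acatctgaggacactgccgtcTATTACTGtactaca
Ighv15-2: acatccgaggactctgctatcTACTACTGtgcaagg
The motif was searched on the transcribed strand only, within the last 40 bases. It was found in 54 of 58 V genes and 13 of 31 pseudogenes, and in 81.4% of all 183 heavy chain V segments of the table. The ends of Ighv14-1 and Ighv14-4 are the same over these 36 bases, so the segments are told apart by bases further upstream. Of the windows of 50 bases along a segment's transcript, the share found in no other Ighv gene was 43.6% at the lowest and 92.6% at the median, and it was 100% for 28 of 89 segments. How multi-mapping reads were counted is not given in the sources used here, so the value of a segment with few windows of its own is uncertain.

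The deposited values are RPKM, in which reads are divided by gene length in kilobases and by library depth. Depth was 63100000, 110900000 and 57400000 counted reads in dnTCF4 replicates 1, 2 and 3, against 63500000, 61800000 and 67700000 in WT replicates 1, 2 and 3. All 292 member values above 0 were whole reads within 0.02 of a read. On a segment of the median length of 353 bases, 1 RPKM stood for 20.3 to 39.1 reads in dnTCF4 libraries and 21.8 to 23.9 reads in WT libraries. Of the genes of the sort gate, Kit was at 74.8, 97.1 and 35.5 RPKM in dnTCF4, against 47.3, 83.7 and 61.7 RPKM in WT. Slamf1, which encodes CD150, was at 0.744, 0.981 and 1.18 RPKM in dnTCF4, against 1.15, 0.792 and 0.852 RPKM in WT. Cd48 was at 1169, 999.8 and 1415 RPKM in dnTCF4, against 994.3, 813 and 895 RPKM in WT. It was thus higher in dnTCF4 without overlap, and was not called (log2 fold change 0.40, SE 0.19, limma adjusted p = 0.569).

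The heavy chain V segments outside Ighv1 were together 8.50-fold lower in dnTCF4. Their summed level was 1616, 872 and 1543 RPKM in dnTCF4 replicates 1, 2 and 3, against 16505, 9216 and 8530.1 RPKM in WT replicates 1, 2 and 3. All 3 dnTCF4 sums lay far below the lowest WT sum. The means were 1343 ± 410.0 RPKM in dnTCF4 and 11417 ± 4419.5 RPKM in WT (SD, n = 3 each), a difference in mean log2 sum of -3.07. A two-sided exact permutation test gave p = 0.1, the smallest that 3 libraries against 3 can give. In reads, the segments held 37329, 36985 and 33904 in dnTCF4, against 384955, 210030 and 210893 in WT. They took 0.365%, 0.220% and 0.335% of the summed RPKM of the table in dnTCF4, against 2.77%, 1.87% and 1.70% in WT.

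The segments of family Ighv1 were at 1981, 654 and 918 RPKM in dnTCF4, against 20549.8, 4857 and 7840.2 RPKM in WT. As a share of the RPKM of all 183 heavy chain V segments, those outside Ighv1 made up 39.2%, 45.6% and 48.1% in dnTCF4, against 39.6%, 51.1% and 41.5% in WT. The shares overlapped, with means of 44.3% ± 4.61 in dnTCF4 and 44.1% ± 6.19 in WT (SD, n = 3 each) and p = 1 in a two-sided exact permutation test. The difference of 0.24 percentage points turned to between -1.999 and 3.77 when 1 library was left out, so no direction can be given to it.

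Fewer segments reached 1 RPKM in dnTCF4. At 1 RPKM or more stood 30, 20 and 25 of the 89 segments in dnTCF4 replicates 1, 2 and 3, against 47, 38 and 41 in WT replicates 1, 2 and 3 (means 25.0 ± 5.0 in dnTCF4 and 42.0 ± 4.58 in WT, SD, n = 3 each). The two-sided exact permutation test again gave its smallest p, 0.1. The deepest library, dnTCF4 replicate 2, had the fewest, and it also had the lowest summed level, 872 RPKM. A count above a fixed RPKM tends to fall with the summed level, so it is not a result separate from the lower sum. Segments listed at 0 numbered 43, 49 and 49 in dnTCF4, against 28, 39 and 34 in WT. Of the 32 segments at 1 RPKM or more in all 3 WT libraries, 12 were so in all 3 dnTCF4 libraries, 10 in 2 of them, 7 in 1 and 3 in 0. The 12 were Ighv2-2, Ighv3-6, Ighv4-1, Ighv5-17, Ighv6-3, Ighv6-6, Ighv7-1, Ighv7-3, Ighv8-6, Ighv9-3, Ighv10-1 and Ighv14-3. Of the 39 segments at 1 RPKM or more in any dnTCF4 library, 0 were below it in every WT library.

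**Figure D1:**
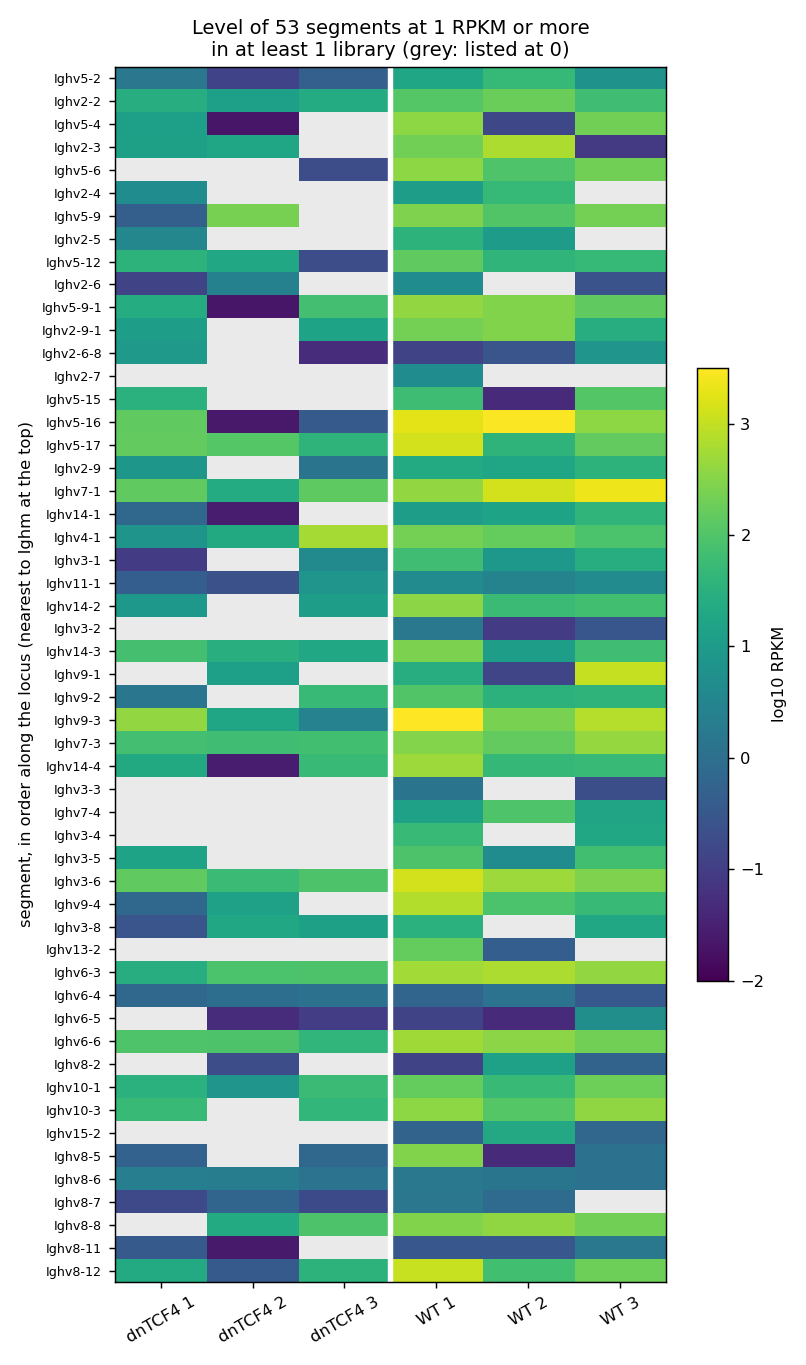
Level of the 53 segments at 1 RPKM or more in at least 1 library, as log10 RPKM by colour, with dnTCF4 replicates 1 to 3 left of WT replicates 1 to 3 and segments in their order along the locus. Grey cells are values listed at 0; Ighv5-6, Ighv7-4 and Ighv14-1 are below 1 RPKM in all 3 dnTCF4 libraries and above it in all 3 WT libraries.

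Of the 89 segments, 58 had a lower mean in dnTCF4, 7 a higher mean, and 24 were at 0 in all 6 libraries. The dnTCF4 and WT values of 24 segments did not overlap with dnTCF4 lower, and 22 of these were among the segments tested below. Of all 11326 genes tested, 2.26% did so. The values of 1 segment did not overlap with dnTCF4 higher, a direction for which no share over all genes was taken. That segment, Ighv8-14, is a pseudogene with 5, 3 and 1 reads in dnTCF4 replicates 1, 2 and 3, against 0 reads in each WT library. Of the 24 segments at 0 throughout, 22 are pseudogenes, and the other 2 are the V genes Ighv5-12-4 and Ighv16-1. Both have 100% of their 50-base windows to themselves. A further 10 segments were at 0 in all dnTCF4 libraries and read in WT, and 2 (Ighv7-2 and Ighv8-14) the other way round. Pseudogenes summed to 0.762, 0.744 and 0.607 RPKM in dnTCF4, against 4.80, 1.49 and 0.775 RPKM in WT, and 9 of 31 were read at all.

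Genes averaging 1 RPKM or more across libraries were tested, and 46 segments were among them, with 0 pseudogenes. In WT all 46 averaged 1 RPKM or more and in dnTCF4 36 did, so passing rested mainly on the WT level. On log2(RPKM + 1), 45 of the 46 had a negative log2 fold change (dnTCF4 minus WT), with a median of -3.17 (-3.17 without the 4 tested segments at 0 in all dnTCF4 libraries), against 31.5% of the 11326 genes tested and a median of 0.14. The values did not overlap, with dnTCF4 lower, for 22 of the 46, against 2.26% of all genes tested. Limma, adjusted over all genes tested, called 3 of the 46, all lower in dnTCF4, against 0.256% of all genes called lower and 0.3% called in either direction. The 3 called, Ighv5-6, Ighv14-1 and Ighv7-4, averaged 0.0658, 0.234 and 0 RPKM in dnTCF4. They entered the test only through their WT level, so the counts over the 46 describe segments selected largely for being high in WT. Leaving out the 4 segments at 0 in all dnTCF4 libraries does not undo that selection. At an unadjusted p under 0.05 stood 26 of the 46, against 9.62% of all genes. With the replicate number as a block the count was again 3, of which 1 was shared.

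Ighv5-6 (chromosome 12, 113625506 to 113625956) fell in dnTCF4. It was at 0, 0 and 0.197 RPKM in dnTCF4 replicates 1, 2 and 3, against 361, 98.8 and 211 RPKM in WT replicates 1, 2 and 3, from 0, 0 and 4 reads in dnTCF4 and 8086, 2154 and 5053 in WT. It was abundant in every WT library, and in dnTCF4 only replicate 3 read it at all. The change was log2 fold change -7.54, SE 0.43, limma adjusted p = 0.000865. The call held whichever single library was dropped (adjusted p = 7.22e-05 to 0.0146) and with the replicate block (0.00694), and its highest adjusted p under any alternative was 0.0470. Its nearest relative among the segments was Ighv5-4, with 95.5% identity over 353 aligned bases. The 90 bases in which they differ most are shown, with the differing bases in capitals.
Ighv5-6: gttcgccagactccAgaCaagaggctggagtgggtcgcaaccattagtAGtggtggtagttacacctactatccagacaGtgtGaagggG
Ighv5-4: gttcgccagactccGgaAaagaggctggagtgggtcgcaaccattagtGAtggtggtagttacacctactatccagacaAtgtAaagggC
Ighv5-4 was at 12.5, 0.0212 and 0 RPKM in dnTCF4, against 371, 0.152 and 217 RPKM in WT, and it did not pass the test (log2 fold change -4.24, SE 2.19, limma adjusted p = 0.599). In WT replicate 2 the table lists 4 reads for Ighv5-4 beside 2154 for Ighv5-6, so the pair was not read in a fixed ratio.

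Ighv14-1 (chromosome 12, 113931953 to 113932382) fell as well. It was at 0.678, 0.0257 and 0 RPKM in dnTCF4 replicates 1, 2 and 3, against 11.6, 15.7 and 39.3 RPKM in WT replicates 1, 2 and 3, from 15, 1 and 0 reads in dnTCF4 and 259, 341 and 933 in WT. The groups did not overlap, and dnTCF4 replicate 1 held 15 of the 16 dnTCF4 reads. The change was log2 fold change -4.09, SE 0.44, limma adjusted p = 0.0319, and adjusted p was 0.0504 with the replicate block. Leaving out 1 library ended the call without dnTCF4 replicate 1 (0.0517), 2 (0.129) or 3 (0.0735) and without WT replicate 1 (0.0523), and over all alternatives adjusted p ran from 0.0103 to 0.196. Its nearest relative, Ighv14-4, shares 97.4% of 351 aligned bases, and only 54.6% of the 50-base windows of Ighv14-1 are its own, so its value is uncertain. The 90 bases in which they differ most carry 5 differences, in capitals.
Ighv14-1: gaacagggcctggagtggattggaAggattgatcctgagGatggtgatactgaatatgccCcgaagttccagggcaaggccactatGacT
Ighv14-4: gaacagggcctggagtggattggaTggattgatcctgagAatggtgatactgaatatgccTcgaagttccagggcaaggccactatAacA
Ighv14-4 was at 22.4, 0.0257 and 52.7 RPKM in dnTCF4, against 506, 45.2 and 54.2 RPKM in WT and did not pass (log2 fold change -3.33, SE 1.54, limma adjusted p = 0.563).

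Ighv7-4 (chromosome 12, 114222788 to 114223328) was the third segment called lower. It was listed at 0 in all 3 dnTCF4 libraries, against 14.2, 96.9 and 16.5 RPKM in WT replicates 1, 2 and 3, from 393, 2616 and 487 reads. With 3 reads in each library as the floor, 0.120 RPKM at the highest, it was at least 118-fold lower in dnTCF4 than in the lowest WT library. The limma test gave an adjusted p of 0.0462, which was 0.0511 with the replicate block and 0.0545 after median ratio scaling. The call held without WT replicate 2 (0.000231) and was lost without any of the other 5 libraries (0.0728 to 0.192). Over all alternatives adjusted p ran from 0.000231 to 0.246. All of its 50-base windows are its own. Ighv7-3, with 93.4% identity over 361 bases, was read in every library, and the stretch in which both differ most is shown with differences in capitals.
Ighv7-4: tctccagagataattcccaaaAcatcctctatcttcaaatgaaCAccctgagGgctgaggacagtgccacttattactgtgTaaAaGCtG
Ighv7-3: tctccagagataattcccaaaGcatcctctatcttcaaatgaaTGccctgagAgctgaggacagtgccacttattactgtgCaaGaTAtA
Ighv7-3 was at 72.8, 65.8 and 68.0 RPKM in dnTCF4, against 299.5, 150.0 and 416 RPKM in WT. Its 3 dnTCF4 values lay close together and below the lowest WT value (log2 fold change -1.93, SE 0.35, limma adjusted p = 0.117).

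**Figure D2:**
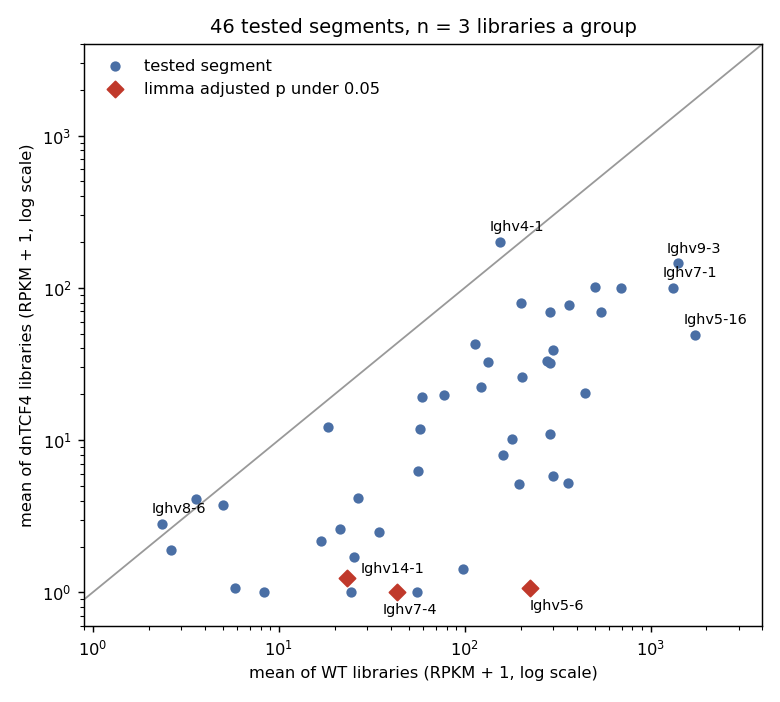
Mean level of the 46 tested segments in dnTCF4 (vertical) and WT (horizontal), as RPKM + 1 on log axes, n = 3 libraries a group, with the line of equal means. Red diamonds are the 3 segments with a limma adjusted p under 0.05; Ighv2-6-8, Ighv4-1 and Ighv8-6 lie above the line.

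With the block, Ighv6-6 and Ighv10-1 were called beside Ighv5-6. Ighv6-6 was at 94.4, 91.0 and 42.0 RPKM in dnTCF4, against 526, 354 and 212 RPKM in WT, with an adjusted p of 0.131 without the block and 0.0340 with it. Ighv10-1 was at 32.0, 7.33 and 55.6 RPKM in dnTCF4, against 157, 51.6 and 190.1 RPKM in WT, with adjusted p values of 0.421 and 0.0483. In both, each dnTCF4 value lay below the WT value of the same number, although the groups of Ighv10-1 overlapped.

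By family, 13 of the 15 families were read, and families Ighv12 and Ighv16 were at 0 in every library. Of the 13, 12 had a lower mean sum in dnTCF4, and the sums of 9 did not overlap between the genotypes. Of single genes tested, 2.26% did not overlap with dnTCF4 lower, and no such share was taken for sums. Among the 9 was Ighv15, at 0 in dnTCF4, against 0.574, 20.9 and 0.662 RPKM in WT. Family Ighv5, the largest with 21 members, 11 of them pseudogenes, summed to 403, 367 and 109.6 RPKM in dnTCF4, against 4782, 3589 and 1470.2 RPKM in WT. It was 11.2-fold lower in dnTCF4. Its most abundant member, Ighv5-16, was at 144, 0.0237 and 0.367 RPKM in dnTCF4 replicates 1, 2 and 3, against 1843, 2976 and 363 RPKM in WT replicates 1, 2 and 3, and held the largest WT value of the family in replicate 2. Ighv5-16 had the most negative log2 fold change of the tested segments but varied among dnTCF4 libraries (log2 fold change -7.75, SE 1.86, limma adjusted p = 0.201). It passed when dnTCF4 replicate 1 was left out (log2 fold change -10.06, adjusted p = 0.0221, and 0.120 to 0.506 under the other alternatives). Ighv5-17 was at 149.9, 112 and 37.5 RPKM in dnTCF4, against 1311, 37.5 and 149 RPKM in WT, and its groups overlapped. Ighv5-9 was at 0.455, 235 and 0 RPKM in dnTCF4, against 274, 102 and 227 RPKM in WT, with 10900 reads in dnTCF4 replicate 2, beside 12 and 0 in the other 2 dnTCF4 libraries, and it passed only when that library was left out (adjusted p = 0.0103). Ighv5-2, a segment at the D-proximal end known for frequent joining early in B cell development, was at 1.48, 0.128 and 0.494 RPKM in dnTCF4, against 17.3, 49.0 and 6.61 RPKM in WT.

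Family Ighv2, interspersed with Ighv5, summed to 77.7, 32.3 and 41.1 RPKM in dnTCF4, against 632, 1198 and 135 RPKM in WT, 13.0-fold lower in dnTCF4 and 7.62-fold lower without WT replicate 2. Ighv2-3, its most abundant member, was at 13.2, 16.7 and 0 RPKM in dnTCF4, against 212, 650.4 and 0.0851 RPKM in WT, so that WT replicate 3 lay below dnTCF4 replicates 1 and 2. Ighv2-2 was more even, at 26.5, 13.0 and 24.4 RPKM in dnTCF4, against 115, 185 and 63.5 RPKM in WT (log2 fold change -2.38, SE 0.43, limma adjusted p = 0.115), although 44.6% of its windows are its own. Ighv2-6 and Ighv2-6-8 were among the 3 tested segments with the highest log2 fold change. Ighv2-6 was at 0.136, 2.55 and 0 RPKM in dnTCF4, against 4.63, 0 and 0.253 RPKM in WT. Ighv2-6-8 was at 9.20, 0 and 0.0498 RPKM in dnTCF4, against 0.135, 0.278 and 7.30 RPKM in WT. Both had overlapping groups and log2 fold changes near 0 whose sign depended on single libraries.

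Family Ighv9 reached 413, 43.5 and 55.9 RPKM in dnTCF4, against 4074, 367 and 1911 RPKM in WT, and its groups overlapped. Ighv9-3 was at 411, 17.1 and 2.78 RPKM in dnTCF4 replicates 1, 2 and 3, against 3193, 244 and 773 RPKM in WT replicates 1, 2 and 3 (log2 fold change -4.80, SE 1.69, limma adjusted p = 0.435), the most abundant segment of replicate 1 in both genotypes. Ighv9-4 was at 0.723, 13.8 and 0 RPKM in dnTCF4, against 750.2, 89.3 and 53.4 RPKM in WT (log2 fold change -5.71, SE 1.24, limma adjusted p = 0.170). Ighv9-1 was at 0, 12.6 and 0 RPKM in dnTCF4, against 26.9, 0.138 and 1047 RPKM in WT, with 24880 reads in WT replicate 3 and 3 in WT replicate 2.

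Family Ighv7 summed to 214, 89.5 and 202 RPKM in dnTCF4, against 716, 1565 and 2682 RPKM in WT, 9.83-fold lower in dnTCF4. Ighv7-1, the segment of the well-known T15 antibodies against phosphorylcholine, was at 141, 23.6 and 134 RPKM in dnTCF4 replicates 1, 2 and 3, against 402, 1318 and 2249 RPKM in WT replicates 1, 2 and 3 (log2 fold change -3.77, SE 0.84, limma adjusted p = 0.174). Its groups did not overlap, and it shares no 50-base window with another Ighv gene. Family Ighv6 summed to 121, 179 and 136 RPKM in dnTCF4, against 1065, 1025 and 624 RPKM in WT, 6.22-fold lower. Ighv6-3 was at 26.1, 86.7 and 93.0 RPKM in dnTCF4, against 538, 669.7 and 406 RPKM in WT, and had the fourth smallest p of the segments without passing (log2 fold change -3.12, SE 0.48, limma adjusted p = 0.0759). It passed when dnTCF4 replicate 1 was left out (adjusted p = 0.0392, and 0.0722 to 0.289 under the other alternatives).

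Family Ighv3 summed to 162, 76.0 and 110.1 RPKM in dnTCF4, against 1545, 515 and 402 RPKM in WT, 7.08-fold lower in dnTCF4 and 3.96-fold lower without WT replicate 1. Ighv3-6, its leading member, was at 146, 56.2 and 92.4 RPKM in dnTCF4 replicates 1, 2 and 3, against 1299, 502 and 269.6 RPKM in WT replicates 1, 2 and 3 (log2 fold change -2.61, SE 0.59, limma adjusted p = 0.180), without overlap. Family Ighv8 summed to 26.8, 27.0 and 129.5 RPKM in dnTCF4, against 1653, 482 and 413 RPKM in WT, 13.9-fold lower. It was 31.5-fold lower without dnTCF4 replicate 3 and 7.32-fold lower without WT replicate 1. Ighv8-12 was at 22.6, 0.353 and 35.1 RPKM in dnTCF4, against 1069.6, 70.1 and 196 RPKM in WT (log2 fold change -4.56, SE 1.40, limma adjusted p = 0.351), and Ighv8-5 at 0.532, 0 and 0.730 RPKM in dnTCF4, against 291, 0.0452 and 1.11 RPKM in WT, high in WT replicate 1 alone. Ighv8-8 was at 0, 23.5 and 91.4 RPKM in dnTCF4, against 286, 395 and 212 RPKM in WT (log2 fold change -4.46, SE 1.46, limma adjusted p = 0.391), without overlap. Of its other members, Ighv8-2 was high in WT replicate 2 alone, and the rest were low in both genotypes. Ighv8-6 was at 2.21, 2.02 and 1.27 RPKM in dnTCF4, against 1.63, 1.36 and 1.11 RPKM in WT, the 1 tested segment with a positive log2 fold change (log2 fold change 0.25, SE 0.19, limma adjusted p = 0.697). Ighv6-4, too low for testing, was at 0.711, 0.985 and 1.12 RPKM in dnTCF4, against 0.618, 1.22 and 0.331 RPKM in WT.

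Family Ighv14 summed to 109, 28.2 and 84.3 RPKM in dnTCF4, against 1133, 129 and 227 RPKM in WT. Family Ighv10 summed to 82.3, 7.33 and 99.1 RPKM in dnTCF4, against 517, 164 and 575 RPKM in WT. They were 6.72-fold and 6.66-fold lower in dnTCF4, without overlap. Without WT replicate 1, family Ighv14 was 2.41-fold lower. Ighv10-3 was at 50.3, 0 and 43.5 RPKM in dnTCF4, against 360.3, 112 and 384 RPKM in WT, with 0 reads in the deepest library. Family Ighv4 was the exception to the lower means, at 7.23, 22.2 and 567 RPKM in dnTCF4, against 220.0, 158 and 86.2 RPKM in WT. Its 1 V gene, Ighv4-1, was at 7.01, 22.2 and 567 RPKM in dnTCF4 replicates 1, 2 and 3, against 219.7, 157 and 85.9 RPKM in WT replicates 1, 2 and 3 (log2 fold change -1.61, SE 1.41, limma adjusted p = 0.715). The value of dnTCF4 replicate 3, from 13476 reads, was the highest of the 6, while the other 2 dnTCF4 values lay below every WT value. Without that library the family sum was 10.49-fold lower in dnTCF4.

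The smallest families were low in most libraries. Ighv13-2 was listed at 0 in dnTCF4, against 162.5, 0.451 and 0 RPKM in WT, so 1 library carried it. Ighv15-2 was listed at 0 in dnTCF4, against 0.574, 20.9 and 0.662 RPKM in WT, at least 3.92-fold lower than in the lowest WT library by the same floor. Ighv11-1 was at 0.449, 0.230 and 7.55 RPKM in dnTCF4, against 4.51, 2.94 and 4.60 RPKM in WT, with overlap, and 47.7% of its windows are its own.

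**Figure D3:**
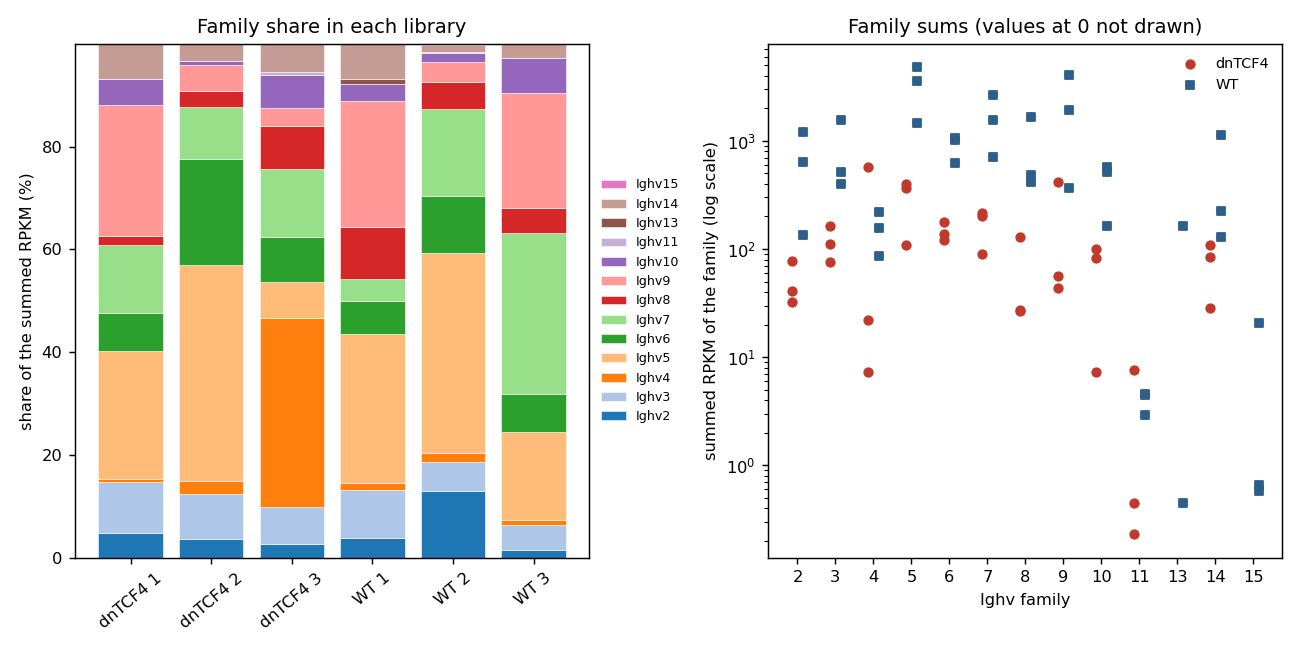
Left, share of each family in the summed RPKM of the segments in dnTCF4 replicates 1 to 3 and WT replicates 1 to 3. Right, summed RPKM of each family by library on a log axis (red circles dnTCF4, blue squares WT, values at 0 not drawn). The dnTCF4 points lie below the WT points except in Ighv4, Ighv9 and Ighv11, where points overlap. Ighv13 and Ighv15 are at 0 in dnTCF4 and have no dnTCF4 points.

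Family shares overlapped between the genotypes in every family read except Ighv15, at 0 in dnTCF4. The lowest adjusted p over the 13 families was 0.929 (two-sided exact permutation tests, n = 3 each). These tests cannot decide whether shares differed, since 3 libraries against 3 give no p below 0.1 even before adjustment. Within pairs of the same number, dnTCF4 minus WT was 0.643, 3.13 and 2.42 percentage points for Ighv3 and 1.05, 9.38 and 1.52 for Ighv6, higher in 3 of 3 pairs. Of the 13 families, only Ighv15 (-0.00347, -0.227 and -0.00776) also kept its sign in all 3 pairs. These families were picked out of 13, and 3 pairs cannot give an exact p below 0.25. Family Ighv5 took 24.9, 42.1 and 7.11% in dnTCF4 and 29.0, 38.9 and 17.2% in WT. Family Ighv9 took 25.6, 4.99 and 3.62% in dnTCF4 and 24.7, 3.98 and 22.4% in WT, high in replicate 1 of both genotypes. Family Ighv7 took 13.2, 10.3 and 13.1% in dnTCF4 and 4.34, 17.0 and 31.4% in WT. Family Ighv4 took 0.447, 2.55 and 36.8% in dnTCF4 and 1.33, 1.71 and 1.01% in WT, so that dnTCF4 replicate 3 stood far from the other 5 libraries.

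A few segments held most of the RPKM in each library. Of its 5 most abundant segments, dnTCF4 replicate 1 shared 4, 3 and 2 with WT replicates 1, 2 and 3. In the same order, dnTCF4 replicate 2 shared 1, 1 and 2, and dnTCF4 replicate 3 shared 1, 3 and 2. Only for dnTCF4 replicate 1 was the sharing highest with the WT library of the same number. The single most abundant segment was Ighv9-3 with 25.4% in dnTCF4 replicate 1, Ighv5-9 with 27.0% in dnTCF4 replicate 2 and Ighv4-1 with 36.8% in dnTCF4 replicate 3. In WT replicates 1, 2 and 3 it was Ighv9-3 with 19.3%, Ighv5-16 with 32.3% and Ighv7-1 with 26.4%. The 5 most abundant segments held 61.3%, 67.8% and 63.4% in dnTCF4, against 52.8%, 66.4% and 57.3% in WT. The effective number of segments, the exponential of the Shannon entropy of their shares, was 14.6, 11.8 and 11.3 in dnTCF4, against 20.4, 12.7 and 16.4 in WT. The means were 12.6 ± 1.78 in dnTCF4 and 16.5 ± 3.87 in WT (SD, n = 3 each), with overlap and p = 0.2 in a two-sided exact permutation test. Within pairs of the same number it was lower in dnTCF4 in 3 of 3, with differences of -5.79, -0.871 and -5.10, with an exact p of 0.25, the smallest that 3 pairs allow.

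**Figure D4:**
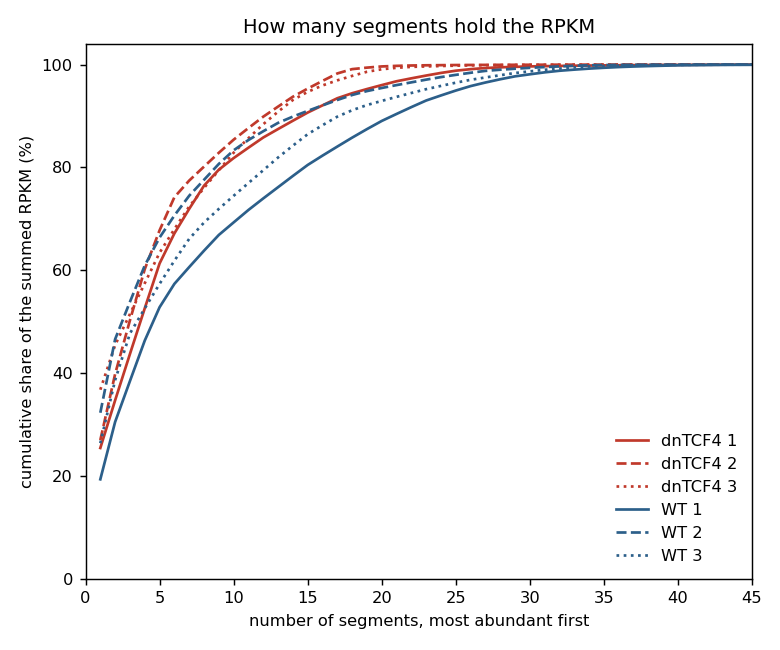
Cumulative share of the summed RPKM (percent) against the number of segments, most abundant first, for the 3 dnTCF4 libraries (red) and 3 WT libraries (blue). The first segment holds between 19.3% (WT replicate 1) and 36.8% (dnTCF4 replicate 3), and the curves of the genotypes cross.

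Along the locus, the 34 segments within 500 kb of Ighm, the mu constant gene, summed to 621, 423 and 285 RPKM in dnTCF4, against 5816, 6106 and 3855 RPKM in WT. The 33 segments at 500 to 1000 kb summed to 791, 324 and 987 RPKM in dnTCF4, against 7992, 2089.6 and 3475 RPKM in WT. Beyond 1000 kb, 22 segments summed to 204, 125 and 271 RPKM in dnTCF4, against 2697, 1021 and 1201 RPKM in WT. The mean sums were 11.9-fold, 6.45-fold and 8.20-fold lower in dnTCF4 with growing distance, without overlap in any of the 3 stretches. Without WT replicate 1 the middle fold was 3.97. The stretches were drawn after the values had been seen and were given no test.

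Other transcripts of the heavy chain locus were lower too. For all 4 joining segments dnTCF4 lay below WT without overlap, with a median log2 fold change of -2.39. Limma called 3 of them lower (Ighj1, Ighj3 and Ighj4), against 0.256% of all genes tested. Ighj2, not called, had the most negative log2 fold change of the 4 (-2.74). With the replicate block Ighj2 was called as well (adjusted p = 0.0387, against 0.0552 without it). Ighj1 was at 426, 205 and 342 RPKM in dnTCF4, against 1333, 1303 and 1542 RPKM in WT (log2 fold change -2.16, SE 0.28, limma adjusted p = 0.0394). Summed RPKM of the V segments over that of the joining segments was 1.87, 1.97 and 2.47 in dnTCF4, against 4.32, 3.51 and 2.69 in WT, without overlap. Of 7 tested constant genes, 1 fell, Ighm, and 6 had a negative log2 fold change, with a median of -3.004. Ighm was at 2309.9, 1024 and 2396 RPKM in dnTCF4, against 13543, 11061 and 9352 RPKM in WT (log2 fold change -2.65, SE 0.35, limma adjusted p = 0.0423). Igha, the constant gene of IgA, was at 460.3, 285 and 273 RPKM in dnTCF4, against 8035, 1048 and 2214 RPKM in WT (log2 fold change -3.004, SE 0.68, limma adjusted p = 0.180). Ighg1, which encodes an IgG constant region, was at 0.0979, 39.0 and 6.38 RPKM in dnTCF4, against 321, 254 and 845 RPKM in WT (log2 fold change -5.90, SE 1.19, limma adjusted p = 0.143). Ighg2b, of another IgG class, was at 15.9, 0.384 and 16.5 RPKM in dnTCF4, against 577, 387 and 251 RPKM in WT (log2 fold change -5.69, SE 0.95, limma adjusted p = 0.0998). Ighd, the delta constant gene of mature naive B cells, was at 7.67, 2.81 and 3.58 RPKM in dnTCF4, against 7.22, 3.04 and 2.77 RPKM in WT (log2 fold change 0.09, SE 0.41, limma adjusted p = 0.927). The V segments summed to 0.571, 0.642 and 0.572 of the RPKM of the 8 constant genes in dnTCF4, against 0.723, 0.700 and 0.667 in WT.

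Of 8 tested recombination genes, 0 were called in either direction, with or without the replicate block, with a median log2 fold change of 0.16, against 0.14 for all genes tested. Rag1, the catalytic recombinase subunit, was at 0.612, 0.0491 and 0.0659 RPKM in dnTCF4, against 0.286, 0.0564 and 0.0559 RPKM in WT. Rag2, its partner, was at 12.3, 7.16 and 6.74 RPKM in dnTCF4, against 14.6, 6.41 and 6.04 RPKM in WT. Dntt, the polymerase that adds bases at the joints, was at 354, 91.1 and 86.6 RPKM in dnTCF4, against 643, 190.2 and 168 RPKM in WT (log2 fold change -0.95, SE 0.69, limma adjusted p = 0.690), high in replicate 1 of both genotypes. Within pairs of the same number its log2 differences were -0.86, -1.05 and -0.95, and with the replicate block the adjusted p was 0.120, which does not pass either. The end-joining factors Xrcc6, Xrcc5 and Nhej1 had log2 fold changes of 0.02, 0.41 and 0.27. Of 7 tested regulators of the locus, 0 were called, with a median of 0.27. Ctcf, the factor that anchors its loops, had a log2 fold change of 0.27, Ikzf1 (Ikaros) 0.27, Ezh2 0.31 and Yy1 0.23, none past the test. Pou2af1, the octamer coactivator of B and plasma cells, was at 3.19, 1.26 and 1.33 RPKM in dnTCF4, against 15.2, 7.80 and 7.19 RPKM in WT (log2 fold change -1.91, SE 0.35, limma adjusted p = 0.117). With the replicate block it was called (adjusted p = 0.0204), with log2 differences of -1.96, -1.96 and -1.82 within the pairs, the 1 regulator of the 7 that was. Of 6 tested genes of the pre-B receptor, 0 were called in either fit, with a median of 0.02.

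Markers of plasma cells also had lower means in dnTCF4. This held for 13 of 14 listed markers, and for 10 of them dnTCF4 lay below WT without overlap, while 2.26% of all genes tested did so and 31.5% had a negative log2 fold change. Of 13 markers in the test, 0 were called, with a median log2 fold change of -0.91, and with the replicate block 2 were, Mzb1 (adjusted p = 0.0313) and Pou2af1. Their summed level was 475 to 914 RPKM in dnTCF4 and 2933 to 8091 RPKM in WT, carried mainly by Jchain. Jchain, which joins IgM and IgA into polymers, was at 612, 284 and 615 RPKM in dnTCF4, against 7568, 2592 and 2482 RPKM in WT (log2 fold change -2.94, SE 0.50, limma adjusted p = 0.0998, and 0.0507 with the block). Mzb1, a chaperone of antibody secretion, was at 41.0, 12.3 and 21.0 RPKM in dnTCF4, against 214, 88.5 and 103 RPKM in WT (log2 fold change -2.45, SE 0.48, limma adjusted p = 0.136). Prdm1, the plasma cell transcription factor, was at 0.139, 0.168 and 0.159 RPKM in dnTCF4, against 1.12, 1.04 and 1.00 RPKM in WT, too low for testing, and Sdc1, which encodes the plasma cell antigen CD138, at 2.56, 0.601 and 1.36 RPKM in dnTCF4, against 1.93, 1.42 and 2.00 RPKM in WT. Txndc5 and Ly6c2 had log2 fold changes of -0.67 and -0.36. No marker was at 0 in all libraries. Their part in the level of the segments was not tested.

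Of 14 markers of the B lineage, 5 had a lower mean in dnTCF4, and of 8 tested, 0 were called, with a median log2 fold change of -0.05. The summed level was 168 to 223 RPKM in dnTCF4 and 193 to 260.1 RPKM in WT. Cd79a, the signalling chain of the B cell receptor, was at 20.3, 3.29 and 8.41 RPKM in dnTCF4, against 68.7, 26.05 and 26.5 RPKM in WT (log2 fold change -1.97, SE 0.62, limma adjusted p = 0.362), and Cd79b at 108, 94.2 and 125 RPKM in dnTCF4, against 124, 90.7 and 95.3 RPKM in WT. Pax5, the factor that holds B cell identity, was at 0.0466, 0.00917 and 0.00591 RPKM in dnTCF4, against 0.0320, 0 and 0 RPKM in WT, near 0 in all 6 libraries. Vpreb1, of the surrogate light chain, was at 6.70, 1.39 and 1.08 RPKM in dnTCF4, against 4.40, 1.92 and 1.62 RPKM in WT. Vpreb3, a pre-B cell protein, was at 6.39, 1.71 and 1.76 RPKM in dnTCF4, against 9.59, 2.58 and 4.09 RPKM in WT. Cd24a had a log2 fold change of 0.08. Neutrophil markers summed to 3039 to 7512 RPKM in dnTCF4 and 614 to 3081 RPKM in WT, with overlap. Of the 9 listed, 1 had a lower mean in dnTCF4. S100a8, the most abundant, had log2 differences of 2.07, 2.54 and 1.52 within pairs of the same number (limma adjusted p = 0.334, and 0.0526 with the block). Erythroblast markers summed to 995 to 1235 RPKM in dnTCF4 and 638 to 687 RPKM in WT, without overlap. The sum was carried mainly by Car2, at 1102, 923 and 1140 RPKM in dnTCF4, against 669, 616 and 629 RPKM in WT. Hba-a1 was near 0 in all 6 libraries and had a lower mean in dnTCF4. T cell markers summed to 7.90 to 42.1 RPKM in dnTCF4 and 12.4 to 41.8 RPKM in WT. Of the 8 neutrophil, 6 erythroblast and 3 T cell markers tested, 0 were called, with or without the replicate block. Their part in the result was not tested either.

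**Figure D5:**
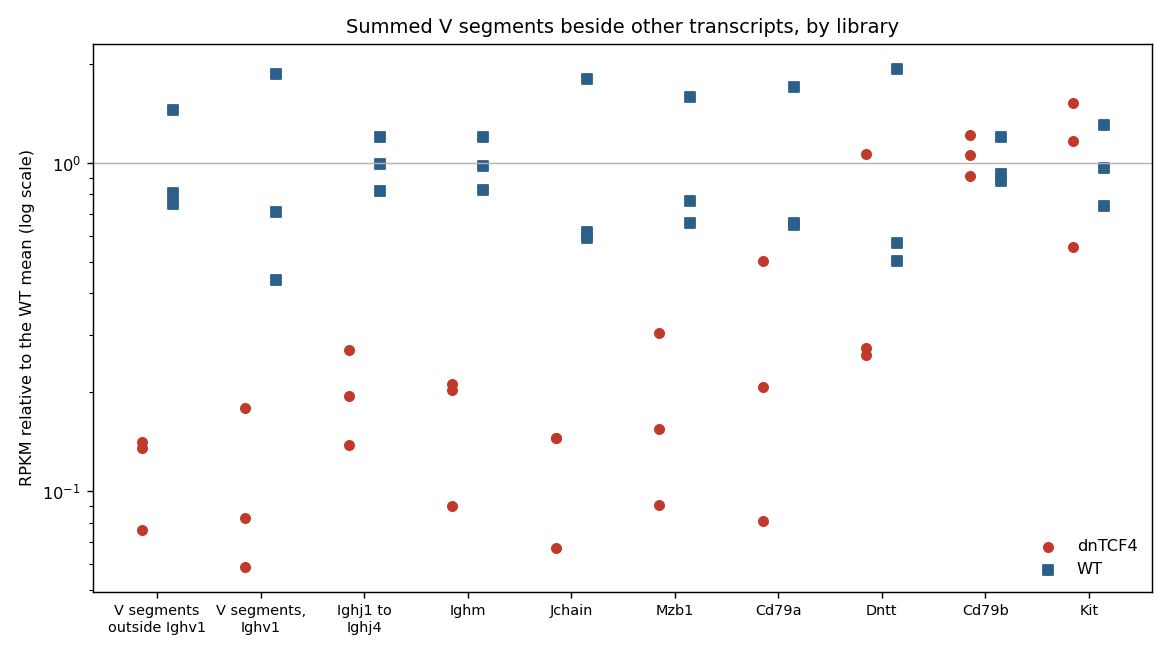
RPKM of each library relative to the WT mean, on a log axis, for the summed V segments outside and within Ighv1, the joining segments, Ighm, and the genes Jchain, Mzb1, Cd79a, Dntt, Cd79b and Kit (red circles dnTCF4, left; blue squares WT, right). The groups do not overlap from the V segments to Cd79a, and overlap for Dntt, Cd79b and Kit.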

How the data were processed

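Poly(A) RNA of 6 sorted ST-HSC libraries was analysed, 3 of dnTCF4 and 3 of WT mice. Per the labels, RNA was amplified with SMART-Seq v4, which does not mark strand (the series text names another SMARTer kit), and libraries were made with Nextera XT. The authors deposited RPKM values per gene symbol, 1 column a library. The submitters' processing notes name DESeq2, edgeR, featureCounts and STAR, and as builds GRCm38 and mm10, without roles or versions. The annotation used is not stated.

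Gene lengths were taken from GENCODE M21, and RPKM times length gave whole reads on 1 step per library, which is the depth. Of the symbols, 49730 matched. Genes averaging 1 RPKM or more entered a limma fit (version 3.58.1, R 4.3.3) of log2(RPKM + 1) with a mean-variance trend and genotype as the only term, and Benjamini-Hochberg adjusted p under 0.05 over all 11326 genes was called. This scale understates the change of low segments. Single values per library were compared by exact permutation. The limma step was tested on simulated data. Tables and plots used Python 3.11.15, pandas 2.3.3 and matplotlib 3.10.9.

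The labels number the libraries but do not state that equal numbers belong together. Across genes, the deviations of the dnTCF4 and WT libraries with number 1, 2 or 3 from their group means correlated at 0.172, 0.354 and 0.303. As all were over 0.1, a fit with the replicate number as a block was an alternative. Libraries of unlike number were not compared in this way. The pairing is thus an assumption taken from these same data, and calls with the block and differences within pairs rest on it. Other alternatives changed the pseudocount (0.1), the filter (none, or a mean of 5 RPKM), the scaling and the test (voom on recovered reads), or left out each library. Fits of the list genes with the block and folds of family and stretch sums with 1 library left out were added after seeing the data. Named segments were those called, the most abundant of each family, and the 3 lowest and 3 highest log2 fold changes. Of each gene list, up to 4 of the most abundant tested members were named, with Rag1, Rag2, Dntt, Pax5, Sdc1 and Jchain whatever their level; 1 further gene of the rule is not reported here. Other genes named were chosen after their values were seen. The members and lists were chosen with earlier results of these data known. Floors cover counting error only, since amplified reads are not independent molecules. Only the series text, not the sample labels, speaks of separate mice.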

Additional observations from a re-analysis of the deposited data

How the results depend on the processing

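The summed RPKM of the segments was lower in dnTCF4 under every alternative run, with a difference in mean log2 sum of -3.25 to -2.78 with 1 library left out, -3.29 after median ratio scaling, -3.28 with libraries scaled to genes other than immunoglobulin genes and -3.15 without the most abundant segment of each library (the last chosen after seeing the data). With the replicate block, the smallest exact p that 3 pairs allow, 0.25, was reached. The difference in the number of segments at 1 RPKM or more, -17.0, was -16.7 at 10 RPKM, -19.5 to -14.5 with 1 library left out and -11.3 counting segments with at least 0.1% of the summed reads, a setting chosen after seeing the data. The effective number kept its direction, with differences of -5.84 to -1.97 with 1 library left out and -1.94 by the inverse Simpson index.

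The 3 called segments were 3 with a pseudocount of 0.1, 2 at a mean of 5 RPKM and 2 after median ratio scaling, 1 without a filter and 1 by voom on recovered reads, and 1 to 5 with 1 library left out: 1 without dnTCF4 replicate 3, 1 without WT replicate 1 and 5 without WT replicate 2. Ighv5-6 was called in all of these. With the replicate block the count stayed 3, with Ighv6-6 and Ighv10-1 in place of Ighv14-1 and Ighv7-4. At an unadjusted p under 0.05 stood 26 of 46 tested segments, against 9.62% of all genes, but the 46 passed the filter largely through their WT level. Without a filter more genes were tested (30670), and standard errors were larger as well, 0.478 against 0.441 for Ighv14-1 and 0.729 against 0.660 for Ighv7-4. The cause of the shifts was not tested.

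The share of the segments among all Ighv genes had no stable sign (-1.999 to 3.77 percentage points with 1 library left out, reversed without dnTCF4 replicate 2 or 3 or WT replicate 1 or 3). Median ratio scaling moved the median over all genes to -0.04 (log2), against 0.14 before it, and the median of the segments to -3.35, against -3.17 before it, with 45 of 46 negative either way. The filter had selected these 46 largely for being high in WT. Of the family shares, those of 6 families changed sign with 1 library left out, while those of Ighv3, Ighv4, Ighv8, Ighv9, Ighv13, Ighv14 and Ighv15 did not: the difference ran from -4.69 to 1.02 for Ighv2, -12.37 to 5.11 for Ighv5, -0.13 to 6.37 for Ighv6, -12.02 to 1.53 for Ighv7, -0.92 to 1.87 for Ighv10 and -0.0106 to 0.22 for Ighv11. Without the most abundant segment of each library it was -0.48 for Ighv4 and 5.05 for Ighv7. The log2 fold change of Ighv2-6 ran from -0.85 to 0.0660 and that of Ighv2-6-8 from -1.16 to 0.87 with 1 library left out. Depth limits the lowest values: a count of 0 allows up to 0.148 RPKM on a segment of median length in the shallowest library.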
